A study of Rattus norvegicus with 4 samples.

Results

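The interferon response and antigen presentation genes described here are 44 genes chosen by symbol: the chains and helpers of the class I and class II major histocompatibility complex, the interferon-induced transcription factors and sensors of foreign nucleic acid, and the antiviral proteins that interferon induces. Of the 44, 41 were matched to a probe, among 15443 genes named on the array. Ddx58, Zbp1 and Xaf1 were not matched. RT1-Ba, a class II alpha chain, was not well above background on any of the 4 arrays, and Oasl was well above background only on the 2 depressive arrays. The other 39 were well above background on all 4 arrays, so that 40 members could be compared between states.

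The tissues were cerebellum and prefrontal cortex, taken from male rats, and RNA was read on 1-colour Agilent arrays. The rats were scored by forced swimming, where time spent immobile in water is read as depressive-like behaviour (106 animals), and those labelled depressive were set against those labelled control. Every rat, controls included, had been through that test 1 week before it was killed, and no group was left without it. Each of the 4 groups (cerebellum control, cerebellum depressive, prefrontal cortex control and prefrontal cortex depressive) is 1 pool of RNA from 4 rats on 1 array. No strain, age, drug or genetic change is named for these rats in the sources used here. With 1 array per group, a difference between states has no replicate check: the errors given with it are standard errors (SE) between the spots of a probe, and it describes these pools.

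Interferons are secreted proteins that cells release on sensing virus or damage. Type I and type III interferons act through receptors and the kinases of the Jak family to activate a complex that holds Stat2 and Irf9 and binds the interferon-stimulated response element in the promoters of many genes, while interferon gamma acts at gamma-activated sites and is the main inducer of class II genes. In healthy brain, class I and class II molecules and interferon-stimulated genes are found at low levels, above all in microglia, in macrophages at the vessels and meninges, and in endothelium.

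Levels are given as relative signal, the processed signal of a gene's brightest probe divided by its array's 75th percentile over all probes, and always in the order cerebellum control, cerebellum depressive, prefrontal cortex control, prefrontal cortex depressive. Relative signals of different probes are not compared. Between 22201 and 23759 of 30367 probes were well above background per array, and the additive error in the file headers, an estimate of background noise, was 6.99 on the cerebellum depressive array and 4.02 to 4.20 on the others. The number of arrays, 4, limits the precision. The deposited value table and the scanner files did not assign the arrays alike: the value-table columns of the prefrontal cortex control and cerebellum depressive samples matched the scanner files linked to each other (correlation of log2 signal across probes 0.9999 or more, against 0.933 with their own linked file). The value table was followed. The 8 cerebellar neuron markers then summed to relative signals of 260.4 and 244.6 on the cerebellum arrays and of 7.51 and 7.0 on the prefrontal cortex arrays. With the files as linked, each comparison of states sets a cerebellum array against a prefrontal cortex array, and its counts differ as given below. Genes of near-identical families (the RT1 chains, the Ifitm genes, the Oas1 genes, Mx1 and Mx2, Ifi27 and Ifi27l2b) can share probe signal and their values are uncertain to that extent.

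Members were mostly higher in the depressive than in the control pool of both tissues, by small amounts. The members were chosen with earlier results of these data known. The shares of all genes set beside them, here and below, are therefore descriptive and make no test. In the cerebellum, 34 of 40 members were above 0 and the median log2 difference was 0.15, where over all 12680 genes measured it was -0.01 and 43.7% were above 0. In the prefrontal cortex, 32 of 40 were above 0 and the median was 0.34, where over all 12572 genes it was -0.01 and 46.7% were above 0. At 1.5-fold or more, 4 members were higher in the cerebellum (Ifi27, Ifi27l2b, Lgals3bp and, as a bound, Oasl) and 0 were lower, against backgrounds of 1.78% and 1.99% of all genes. In the prefrontal cortex 11 were higher (Irf7, Ifi27, Isg15, Oas1a, Ifit3, RT1-Bb, RT1-Da, Ifitm1, Usp18, Ifit2 and, as a bound, Oasl) and 0 lower, against 1.61% and 1.11%. The count in the prefrontal cortex fell to 3 (Ifi27, Irf7 and Isg15) with normexp background correction, which takes the median spot signal and its local background in place of the processed signal and adds an offset of 50. These changes were made together, and the share of all genes past 1.5-fold under them is not given here. Without normexp, 1 member in the prefrontal cortex, Oasl as a bound, was 2-fold or more higher, as were 58 of all 12572 genes. In the cerebellum 3 members were (Ifi27, Ifi27l2b and, as a bound, Oasl), as were 97 of all 12680 genes. With scanner files as linked, 5 members were higher and 12 lower in the comparison labelled cerebellum, and 6 higher and 9 lower in that labelled prefrontal cortex. These are the tissue comparisons of the control and of the depressive pools with the sign reversed. Of all genes, 2762 were higher and 2642 lower in the first (12917 measured), and 2850 higher and 2383 lower in the second (12678).

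**Figure D1:**
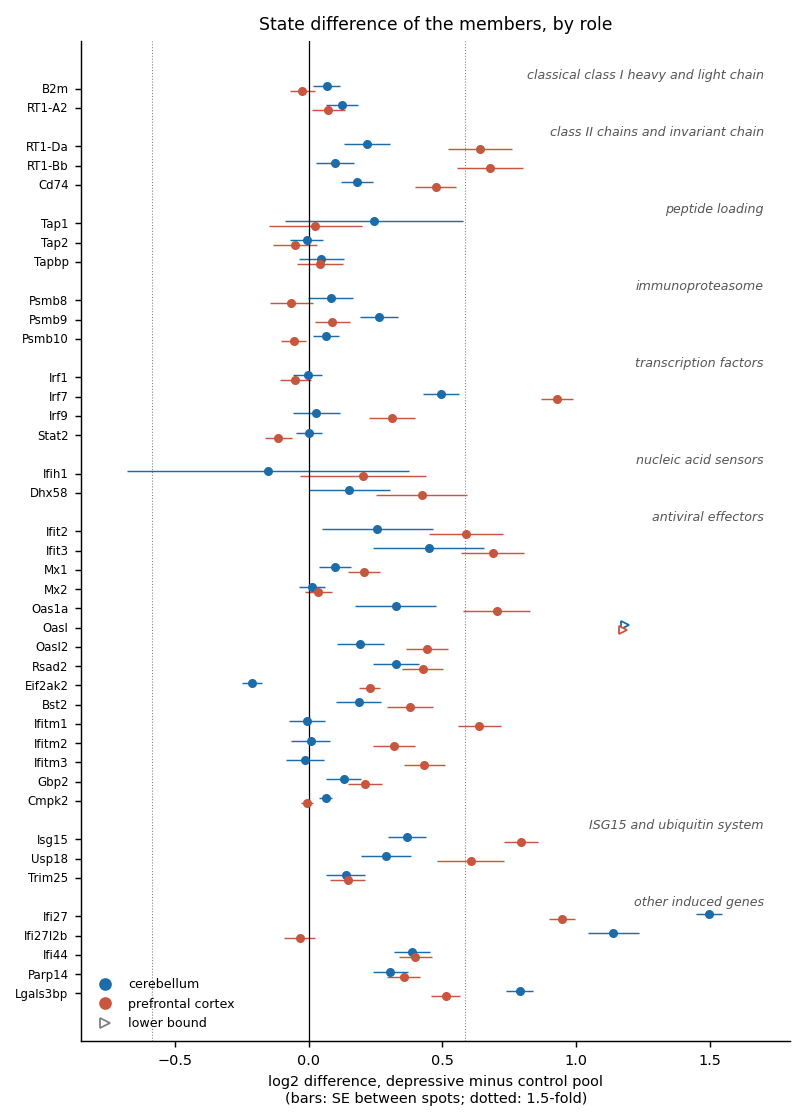
Log2 difference, depressive minus control pool, of the 40 members measured, grouped by role, in the cerebellum (blue) and the prefrontal cortex (red). Bars are the SE between spots, open triangles the nominal bounds of Oasl and dotted lines a 1.5-fold difference. No member lies beyond the dotted line on the lower side, and the class II, Ifitm and ISG15 genes have their larger difference in the prefrontal cortex.

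Ifi27 and, as a bound, Oasl were the 2 members at 1.5-fold or more in both tissues, against 0.189% of the 12201 genes measured in both, bounds included. Oasl could be compared only because the depressive arrays measured it, so the sign of its difference was set by that filter. Ifi27, a small hydrophobic membrane protein strongly induced by type I interferon, had relative signals of 7.81, 22.0, 15.4 and 29.6. The depressive pool was the higher in each tissue, and the difference was 1.5 ± 0.05 on the log2 scale (SE between spots; 2.82-fold) in the cerebellum and 0.95 ± 0.05 (1.93-fold) in the prefrontal cortex. Among the 11623 genes that all 4 arrays measured well above background, Ifi27 ranked 20th by this difference in the cerebellum and 29th in the prefrontal cortex. Oasl, an oligoadenylate synthetase-like protein, had relative signals of 0.00298, 0.00676, 0.00401 and 0.00904, close to background throughout. Neither control array measured it above background, so its difference is given as a nominal bound, 2.27-fold in the cerebellum and 2.26-fold in the prefrontal cortex. The bound sets the depressive signal against the higher of the probe's own control signal and the lowest signal well above background on that array. That was the probe's own control signal in both tissues, so the bound equals the plain ratio and is no firm lower limit. The SE between spots at that brightness was 0.72 and 0.60 on the log2 scale, and with normexp the differences were 0.14 and 0.13, so that Oasl no longer passed.

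The promoters of these 2 genes are shown because they alone passed in both tissues, Oasl only as a bound. Each promoter is given as the 250 bases before the start of transcription in RefSeq (GRCr8), 5′ to 3′ on the gene's strand. Capitals mark matches to GAAANNGAA, the core of the interferon-stimulated response element, searched on both strands, where overlapping matches run together. Positions count from -1, the base before the start.
Ifi27, chr6:128355062-128355311, plus strand: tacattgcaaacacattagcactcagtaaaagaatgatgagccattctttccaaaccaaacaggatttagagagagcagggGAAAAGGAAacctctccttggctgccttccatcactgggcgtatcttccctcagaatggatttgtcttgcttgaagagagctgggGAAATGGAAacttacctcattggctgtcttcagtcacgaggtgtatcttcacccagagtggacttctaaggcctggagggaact
Oasl, chr12:47356293-47356542, minus strand: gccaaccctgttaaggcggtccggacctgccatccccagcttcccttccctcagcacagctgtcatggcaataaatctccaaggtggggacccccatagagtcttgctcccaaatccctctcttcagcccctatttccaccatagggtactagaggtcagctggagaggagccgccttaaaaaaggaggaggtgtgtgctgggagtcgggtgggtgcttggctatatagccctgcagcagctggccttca
Ifi27 had matches beginning at -169 and -84, and Oasl had 0 matches in this window. Of the 35 members with a RefSeq promoter entry of 300 bases (250 before the start and 50 after), 23 (65.7%) held the motif, against 10.3% of 27457 promoters and 8.45% of the 12623 promoters of genes named on the array. The motif was in 5 of the 8 members with an entry that passed 1.5-fold in either tissue and in 17 of 25 other members measured in both. The gamma-activated site, TTCNNNGAA, was in 7 of 35 members (20%), against 9.39% of all promoters and 8.12% of those on the array. A match describes these letters and is not a measured binding site.

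The other members past 1.5-fold that had a match are shown as the stretch around it, with Psmb10 beside them as a member with 3 matches and differences between states near 0. These were chosen after their values were seen.
Irf7, chr1:205800058-205800116, minus strand: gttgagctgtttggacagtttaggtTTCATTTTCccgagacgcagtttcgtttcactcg
Ifit3, chr1:241527258-241527335, plus strand: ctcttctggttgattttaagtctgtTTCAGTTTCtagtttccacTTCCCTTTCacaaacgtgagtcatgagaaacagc
Oas1a, chr12:41330400-41330464, plus strand: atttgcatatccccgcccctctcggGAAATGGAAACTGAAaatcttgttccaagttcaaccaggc
Lgals3bp, chr10:104127865-104127923, minus strand: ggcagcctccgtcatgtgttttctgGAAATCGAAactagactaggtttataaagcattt
Psmb10, chr19:50743276-50743390, minus strand: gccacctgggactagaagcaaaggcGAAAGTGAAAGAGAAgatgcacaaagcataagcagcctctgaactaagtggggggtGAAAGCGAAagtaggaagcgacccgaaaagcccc
The matches of Irf7 and Ifit3 lie on the strand opposite to the gene. Psmb10 had log2 differences of 0.07 ± 0.05 in the cerebellum and -0.06 ± 0.05 in the prefrontal cortex, so that matches were found both in members past 1.5-fold and in a member with little difference.

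Among the transcription factors, Irf7, the factor that amplifies type I interferon production and is itself induced by interferon, was higher in both depressive pools. Its relative signals were 0.378, 0.532, 0.404 and 0.770. The control pools of the tissues were near each other and the prefrontal cortex depressive pool was the highest. The log2 difference was 0.49 ± 0.07 in the cerebellum and 0.93 ± 0.06 (1.90-fold) in the prefrontal cortex. Irf9, the DNA-binding partner of Stat2, differed by 0.03 ± 0.09 and 0.31 ± 0.09. Stat2 (0.00 ± 0.05 and -0.11 ± 0.05) was close to equal between states in the cerebellum and slightly lower in the depressive prefrontal cortex pool. Irf1, a factor induced mainly by interferon gamma, differed by 0.00 ± 0.05 and -0.05 ± 0.06, within its SE between spots. The dimmer second probe of Irf1 gave -0.18 in the cerebellum and -0.22 in the prefrontal cortex.

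Of the 2 sensors measured, Dhx58, a helicase that regulates RNA sensing, had relative signals of 0.0935, 0.104, 0.0474 and 0.0635. It was higher in the depressive pool of each tissue, by 0.15 ± 0.15 and 0.42 ± 0.17, and both cerebellum pools lay above both prefrontal cortex pools. Ifih1, which detects long double-stranded RNA, had differences of -0.15 ± 0.53 and 0.20 ± 0.24, smaller than the SE between spots.

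Of the 15 antiviral effectors, 12 were above 0 in the cerebellum with a median of 0.13, and 14 in the prefrontal cortex with a median of 0.43. Ifit3, one of the proteins that bind foreign RNA and block its translation, had relative signals of 0.050, 0.0682, 0.0539 and 0.0868. Its relative Ifit2 had 0.0534, 0.0638, 0.0751 and 0.113. For each the prefrontal cortex depressive pool was the highest of the 4, and the log2 difference was 0.45 ± 0.21 and 0.69 ± 0.12 for Ifit3, and 0.26 ± 0.21 and 0.59 ± 0.14 for Ifit2, the member nearest to the limit of 1.5-fold among those past it. Oas1a, a synthetase of the signal that activates the RNA-degrading enzyme RNase L, had relative signals of 0.0753, 0.0943, 0.0756 and 0.123. Its control pools were equal within the spread between spots, and the difference was 0.32 ± 0.15 in the cerebellum and 0.70 ± 0.13 (1.63-fold) in the prefrontal cortex.

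The 3 Ifitm genes, whose membrane proteins hinder the entry of viruses, were higher in the depressive pool of the prefrontal cortex and not of the cerebellum. Ifitm1 had relative signals of 0.384, 0.382, 0.169 and 0.263, level between the cerebellum pools and higher in the depressive than in the control pool of the prefrontal cortex. Its log2 differences were -0.01 ± 0.07 and 0.64 ± 0.08. Ifitm2 differed by 0.01 ± 0.07 and 0.32 ± 0.08, and Ifitm3 by -0.01 ± 0.07 and 0.43 ± 0.08. Whether these differences between the tissues exceed the spread between pools was not tested.

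The other effectors lay within 1.5-fold in both tissues. Rsad2, which makes a nucleotide that stops viral RNA synthesis, differed by 0.33 ± 0.09 and 0.43 ± 0.08, Oasl2 by 0.19 ± 0.09 and 0.44 ± 0.08, and Bst2, which tethers budding viruses and has 1 spot, by 0.19 ± 0.08 and 0.38 ± 0.09. Mx1 and Mx2, dynamin-like antiviral proteins, differed by 0.10 ± 0.06 and 0.01 ± 0.05 in the cerebellum and by 0.21 ± 0.06 and 0.04 ± 0.05 in the prefrontal cortex. The guanylate-binding protein Gbp2 differed by 0.13 ± 0.07 and 0.21 ± 0.06, and Cmpk2, a mitochondrial nucleotide kinase, by 0.06 ± 0.02 and -0.01 ± 0.02. Eif2ak2, the kinase that halts translation on double-stranded RNA, had -0.21 ± 0.04 and 0.23 ± 0.04, but its second probe gave 0.20 and 0.34, so its probes disagree in sign in the cerebellum.

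In the ISG15 system, Isg15, a ubiquitin-like protein attached to other proteins in the interferon response, had relative signals of 0.260, 0.335, 0.303 and 0.525. Usp18, the protease that removes it and dampens interferon receptor signalling, had 0.101, 0.124, 0.113 and 0.172. In both genes the prefrontal cortex depressive pool stood highest. The log2 difference of Isg15 was 0.37 ± 0.07 in the cerebellum and 0.79 ± 0.06 (1.73-fold) in the prefrontal cortex, and that of Usp18 was 0.29 ± 0.09 and 0.60 ± 0.13, with 0.24 and 0.63 from its second probe. Trim25, a ubiquitin ligase of the RNA-sensing pathway, differed by 0.14 ± 0.07 and 0.15 ± 0.07.

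**Figure D2:**
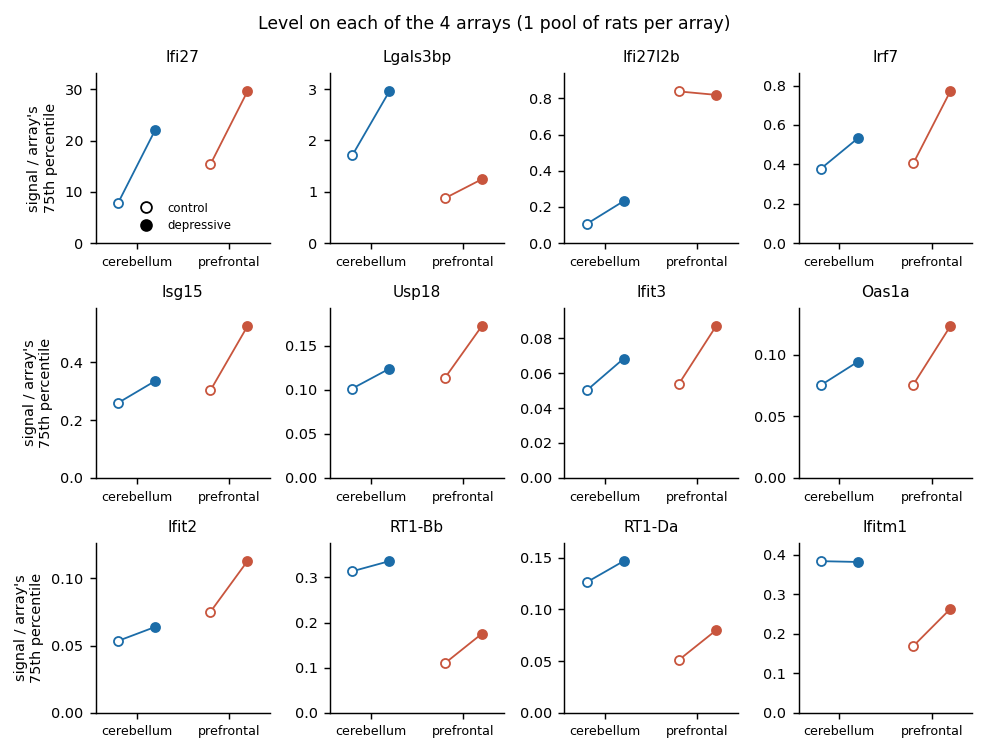
Relative signal (processed signal divided by the array's 75th percentile) of 12 members on each of the 4 arrays; open points are control and filled points depressive pools, lines join the pools of a tissue, and each axis starts at 0. Ifi27 is higher in both depressive pools, Ifi27l2b in the cerebellum alone and Ifitm1 in the prefrontal cortex alone.

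Among the remaining interferon-induced genes, Ifi27l2b, a relative of Ifi27, was higher in the depressive pool of the cerebellum and level in the prefrontal cortex. Its relative signals were 0.105, 0.232, 0.839 and 0.820. Both cerebellum pools lay well below both prefrontal cortex pools. The log2 difference was 1.14 ± 0.09 (2.20-fold) in the cerebellum and -0.03 ± 0.06 in the prefrontal cortex, and its second probe gave 0.98 and -0.01. Lgals3bp, a secreted glycoprotein that binds galectins, had relative signals of 1.71, 2.95, 0.871 and 1.24. It was higher in both depressive pools, by 0.79 ± 0.05 (1.73-fold) and 0.51 ± 0.06 (1.43-fold), just under the limit in the second. Ifi44 differed by 0.39 ± 0.07 and 0.40 ± 0.06, and Parp14, an ADP-ribosyltransferase, by 0.31 ± 0.07 and 0.35 ± 0.06, similar in size between the tissues.

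The 3 class II members measured were higher in the depressive prefrontal cortex pool. RT1-Bb, a class II beta chain, had relative signals of 0.314, 0.336, 0.109 and 0.175, and RT1-Da, a class II alpha chain, had 0.126, 0.147, 0.0512 and 0.0797. Cd74, the invariant chain that guards the class II groove until peptide is loaded, had 0.637, 0.722, 0.250 and 0.348. In all 3 both cerebellum pools lay above both prefrontal cortex pools, and within each tissue the depressive pool was the higher. The log2 differences in the prefrontal cortex were 0.68 ± 0.12 for RT1-Bb, 0.64 ± 0.12 for RT1-Da and 0.47 ± 0.08 for Cd74, and in the cerebellum 0.10 ± 0.07, 0.22 ± 0.09 and 0.18 ± 0.06. The dimmer second probe of RT1-Bb gave 0.18 in the prefrontal cortex and -0.06 in the cerebellum, so its place past 1.5-fold rests on the brighter probe. Of the 6 further class II genes of the pathway list measured, RT1-Db1, a class II beta chain, shared this direction in the prefrontal cortex (0.37). The others there, RT1-DMa, RT1-DMb, RT1-DOb, Ctss and Ifi30, were below 0, and the median of the 6 was -0.07.

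The class I members and those of the peptide supply lay within 1.5-fold in both tissues. B2m, the light chain of every class I molecule, had relative signals of 10.6, 11.1, 9.56 and 9.41, level within each tissue (0.07 ± 0.05 and -0.02 ± 0.05), and the heavy chain RT1-A2 differed by 0.12 ± 0.06 and 0.07 ± 0.06. Tap2, a chain of the transporter that carries peptides into the endoplasmic reticulum, had relative signals of 0.503, 0.501, 0.234 and 0.226. They were the same between states within the spread between spots and higher in the cerebellum. Of the other peptide-loading genes, Tap1 differed by 0.24 ± 0.33 and 0.02 ± 0.17 and the bridging protein Tapbp by 0.05 ± 0.08 and 0.04 ± 0.09. The immunoproteasome subunits, which cut proteins for class I display, ranged from 0.07 to 0.26 in the cerebellum and from -0.06 to 0.09 in the prefrontal cortex, and Psmb9 was the highest in each.

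Taking the tissues together, 28 of 40 members were above 0 in both, against 24% of all genes measured in both, 2 were below 0 in both and 10 had opposite signs. Of the 28, 21 had the larger difference in the prefrontal cortex, a share that was not computed for all genes. Across the 39 members on all arrays the state differences of the tissues correlated with r of 0.43 (Spearman rho 0.52), and with r of 0.28 across the 38 members other than Ifi27. Across all 11623 genes the values were 0.20 and 0.18. Genes are not independent replicates, and the comparisons of the tissues share no array, although the sources used here do not say whether the same rats gave both tissues.

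**Figure D3:**
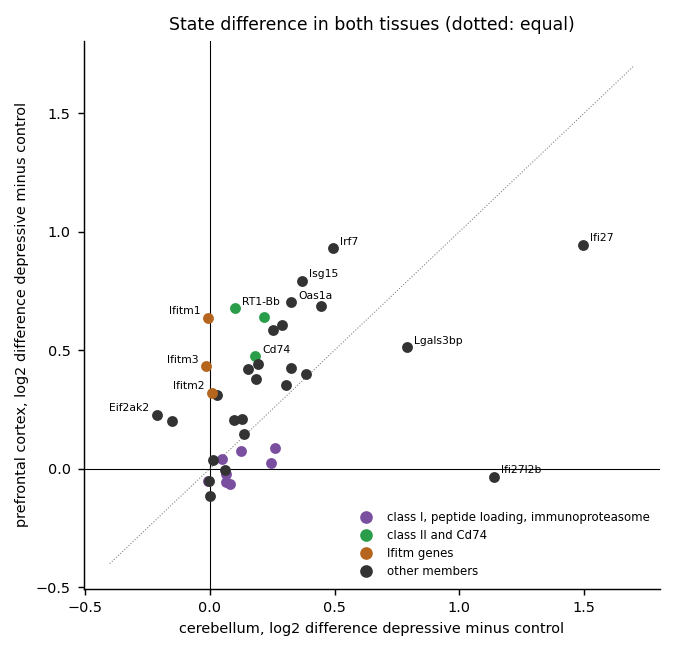
Log2 difference between depressive and control pool of the 39 members on all 4 arrays, in the cerebellum (x axis) and the prefrontal cortex (y axis); the dotted line marks equal differences. Irf7, Isg15, Oas1a and the class II genes lie above the line, Ifi27, Lgals3bp and Ifi27l2b below it, and the class I, peptide-loading and immunoproteasome genes near the origin.

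A limma fit of state and tissue over the 11623 genes, with 1 residual degree of freedom, called 0 of 39 members between states at an adjusted p under 0.05 (lowest adjusted p 0.636), as it called 0% of all genes. At an unadjusted p under 0.05, 17 of 39 members were higher in the depressive pools and 0 lower, where 3.73% of all genes were higher. The fitted difference was above 0 in 36 of 39 members, and its median (log2) was 0.21 against -0.01 for all genes. The smallest unadjusted p-values were those of Ifi44 (limma, 0.39 ± 0.05, SE of the fit), Ifi27 (1.22 ± 0.16) and Lgals3bp (0.65 ± 0.09), each higher in 2 of 2 tissues.

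The tissues themselves differed for most members. In the same limma fit 15 of 39 were higher in the cerebellum and 11 lower at an adjusted p under 0.05, and 13 were not called, against 37.7% and 35.2% of all genes. With no filter on dim probes the fit called fewer, 10 of 41 higher and 7 lower, and the share of all genes called there is not given here. In the filtered fit the share of members called was no higher than that of all genes, and the median tissue difference was 0.02 for both. The largest differences on the higher side were those of RT1-Bb and Cd74. RT1-Bb was 1.23 ± 0.17 higher on the log2 scale (SE of the fit, limma adjusted p 0.007), and Cd74 1.20 ± 0.09 (adjusted p 0.002). Tap2 followed with 1.13 ± 0.05 (limma adjusted p 0.0008), Lgals3bp with 1.11 ± 0.09 (adjusted p 0.002) and RT1-Da with 1.09 ± 0.13 (adjusted p 0.005).

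On the lower side, Ifi27l2b differed by -2.41 ± 0.32 (limma adjusted p 0.007), with its gap narrower between the depressive pools (-1.82) than between the control pools (-3.0), a change that was not tested. Oasl2, with relative signals of 0.140, 0.160, 0.250 and 0.340, differed by -0.96 ± 0.08 (limma adjusted p 0.003). Ifih1, with 0.0127, 0.0114, 0.0206 and 0.0237, differed by -0.88 ± 0.11 (limma adjusted p 0.006). For both genes the 2 cerebellum arrays lay below the 2 prefrontal cortex arrays. Of the antigen presentation members, both class I chains, the 3 measured class II genes, Tap2 and Tapbp were higher in the cerebellum, the immunoproteasome subunits Psmb8 and Psmb10 were lower, and Tap1 and Psmb9 were not called.

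**Figure D4:**
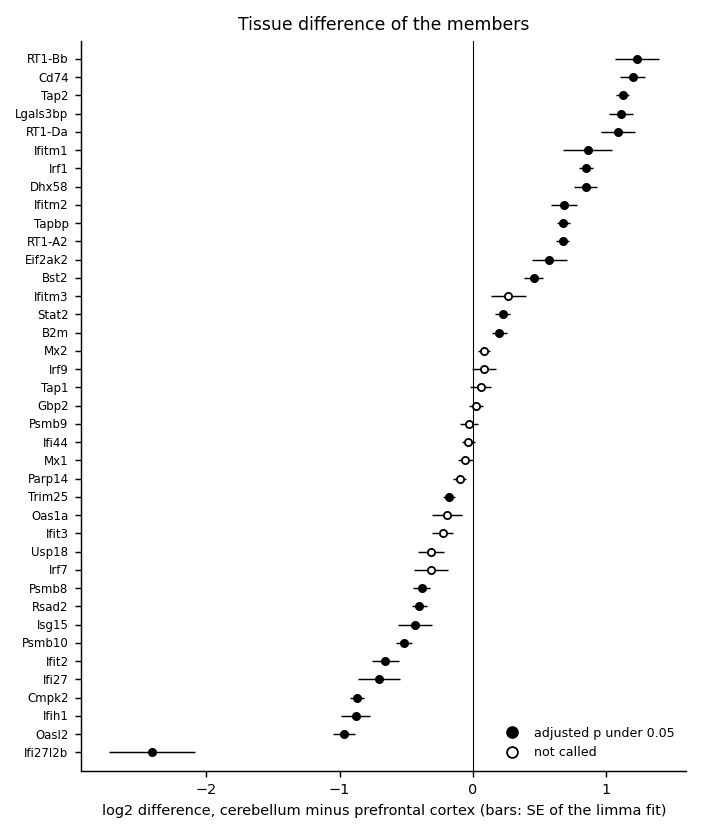
Log2 difference, cerebellum minus prefrontal cortex, of the 39 members in the limma fit of tissue and state, ordered by size, with the SE of the fit as bars. Filled points have an adjusted p under 0.05: 15 to the right of 0, led by RT1-Bb and Cd74, and 11 to the left, of which Ifi27l2b lies farthest out.

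Other genes of the pathway, from a list of 127 of which 100 were on the array, gave fewer differences between states. In the cerebellum 55 of 85 measured were above 0 (median 0.04), against 43.7% of all genes. At 1.5-fold, 0 were higher and 1, Irf2, was lower as a bound from a signal near background, against 1.78% and 1.99% of all genes. In the prefrontal cortex 47 of 82 were above 0 (median 0.02), against 46.7% of all genes. There 4 were 1.5-fold higher and 0 lower, against 1.61% and 1.11% of all genes. The 4 were Oas1k, an Oas1 relative (0.87 ± 0.17), Apol9a (0.79 ± 0.17), the chemokine Cxcl10 (0.79 ± 0.32) and, as a bound near background, the class I gene RT1-CE10. In the cerebellum the largest differences among genes above background on both arrays were those of Oas3 (-0.55 ± 0.67) and Socs1 (-0.47 ± 0.47), no larger than about their SE between spots, then Apol9a (0.33 ± 0.21), Ifi35 (0.33 ± 0.09) and Tlr3 (0.33 ± 0.21). Of the ligands, Ifnb1, Ifng and Ifnk were not well above background on any array, and Ifna4 differed by -0.17 ± 0.08 and -0.12 ± 0.09. The 4 receptor chains measured lay between -0.13 and 0.21. Of the further interferon-stimulated genes, 21 of 32 measured were above 0 in the cerebellum (median 0.09), against 43.7% of all genes. In the prefrontal cortex 22 of 31 were (median 0.11), against 46.7%. Among further class II genes 1 of 6, RT1-Db1, was above 0 in the prefrontal cortex, at 0.37, and among further class I genes 11 of 13 were above 0 there, with a median of 0.07. In the limma fit 0 of 80 of these genes were called between states, as were 0% of all genes. At an unadjusted p under 0.05 there were 15, in either direction, a share not computed for all genes. Between tissues, 27 were higher and 28 lower in the cerebellum, against 37.7% and 35.2% of all genes. The further class II genes went both ways between tissues: RT1-Db1 and Ifi30 were higher in the cerebellum in that fit, and RT1-DMa (-1.14), Ctss (-1.20), RT1-DMb (-0.67) and RT1-DOb (-0.64 on the log2 scale) were lower.

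Markers of other cell types moved with the state as well. In bulk tissue, fewer cells of a type and less RNA per cell cannot be told apart. The red cell list was higher in both depressive pools: 6 of 6 genes were above 0 in the cerebellum (median log2 difference 1.63) and 5 of 6 in the prefrontal cortex (1.38), and the list's summed relative signal was 3.97, 17.5, 7.0 and 27.0 on the 4 arrays. Its brightest genes Hba-a1 and Hbb differed by 1.75 ± 0.05 and 2.92 ± 0.05 in the cerebellum and by 1.72 ± 0.05 and 2.45 ± 0.05 in the prefrontal cortex. The rats had been perfused with saline through the heart, per the labels' protocols. The part of red cells in the members' differences was not tested.

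The list of meninges and fibroblasts was higher in the depressive prefrontal cortex pool, where the 3 class II members measured and the Ifitm genes were higher too: 10 of 11 genes were above 0, with a median of 0.71, against 8 of 11 and 0.14 in the cerebellum, and the summed relative signal was 136.2, 149.5, 29.5 and 56.3. All 11 were higher in the cerebellum in the limma fit, as were the 3 class II members, while 4 of 6 further class II genes were lower. The choroid plexus list differed by a median of 0.65 in the cerebellum (7 of 8 above 0) and of -1.0 in the prefrontal cortex (3 of 7), with sums of 262.3, 264.4, 13.3 and 4.70, and all 6 of its genes in the fit were higher in the cerebellum. The oligodendrocyte list was also higher in the depressive prefrontal cortex pool, with 6 of 6 genes above 0 and a median of 0.38, against 3 of 6 and 0.01 in the cerebellum, and its sums were 251.2, 244.6, 197.6 and 205.7. The cerebellar neuron list was lower there, with 2 of 8 above 0 and a median of -0.23, against 0 of 8 and -0.07. The part of these lists in the members' differences was not tested.

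Of the immune lists, microglia had 10 of 12 genes above 0 in the cerebellum (median 0.12) and 3 of 12 in the prefrontal cortex (-0.07), with sums of 22.4, 23.9, 45.5 and 43.5, and 11 of 12 were lower in the cerebellum in the limma fit, as were 4 of 6 further class II genes, while the 3 class II members were higher. Perivascular macrophage genes had 1 of 5 above 0 in the cerebellum (median -0.08) and 3 of 5 in the prefrontal cortex (0.30), with sums of 0.305, 0.270, 0.303 and 0.278. Of the lymphocyte markers Cd3e, Cd2 and Cd79b, and of the neutrophil and monocyte markers Mmp8 and Ccr2, none was well above background on any array. The lymphocyte genes measured had 2 of 4 above 0 in the cerebellum (median 0.06) and 2 of 2 in the prefrontal cortex (0.02). Those of neutrophils and monocytes had 1 of 4 above 0 in the cerebellum (median -0.32, with 1 lower by 1.5-fold or more) and 2 of 4 in the prefrontal cortex (-0.27, with 2 lower). The summed signal of the lymphocyte list was 0.248, 0.255, 0.226 and 0.232, and that of the neutrophil and monocyte list 0.143, 0.133, 0.231 and 0.193. The endothelium list differed by medians of 0.02 (5 of 9 above 0) and 0.06 (6 of 9), with sums of 6.01, 6.16, 9.70 and 10.04. The housekeeping list had 1 of 11 above 0 in each tissue, with medians of -0.01 and -0.07. The part of these cell types in the members' differences was not tested.

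**Figure D5:**
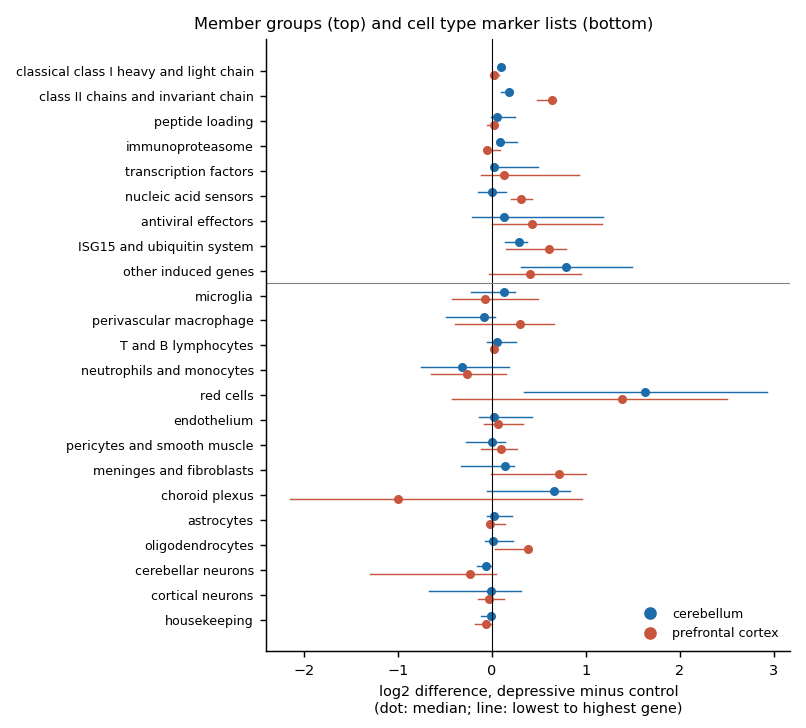
Median log2 difference between depressive and control pool (dot) with the lowest and highest gene (line) for the member groups, above the grey line, and the marker lists, below it, in the cerebellum (blue) and the prefrontal cortex (red). The red cell list is higher in both tissues, the meninges and fibroblast list in the prefrontal cortex, and the housekeeping list lies near 0.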

How the data were processed

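RNA from 4 groups was hybridised to 1 slide of 1-colour Agilent arrays, 400 ng per pool, per the labels' protocols. Brain slices of 1 mm came from 9.8 to 10.8 mm behind the bregma for the cerebellum, and from 3.2 to 4.2 mm before it for the prefrontal cortex. The authors deposited scanner files with a background-subtracted processed intensity per spot from Agilent Feature Extraction 10.7.1.1, per the file headers, and a table of intensity values for 23207 probes, with a scaling not stated in the sources.

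Spots marked as outliers or controls were dropped, log2 intensity was averaged over spots and the array's 75th percentile subtracted. Arrays were assigned by matching the value table to the scanner files. The descriptions of the depressive samples name the opposite tissue; title, source name and characteristics were followed. Of 30367 probes, 18355 were named through a RefSeq GRCr8 table by accession without version, giving 15443 genes, and 12012 stayed unnamed. A gene was represented by its brightest probe and counted as well above background where 50% or more of a probe's spots were flagged so. Where 1 array of a pair was not, the fold is a bound. A gene that neither array of a pair measured above background was not compared.

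No test was made within a tissue. The limma fit (limma 3.58.1 in R 4.3.3, lmFit and eBayes, Benjamini-Hochberg over 11623 genes) had tissue and state as terms, and was tested on simulated data. The simulated state differences were the same in both tissues, so that test does not cover genes whose difference varies with tissue. The fit took the tissues as replicates of a state and the states as replicates of a tissue, which the labels do not say. The tables were made with Python 3.11.15, numpy 2.4.6 and pandas 2.3.3. Alternatives were normexp (offset 50, on the median signal, since the files hold no mean signal), median scaling, quantile normalization, the mean over probes, stricter or no filters, a 2-fold limit, the value table, and the files as linked. Members past 1.5-fold, the 8 with the largest tissue difference and at least 1 of each role are given on all 4 arrays, other members by values or ranges, up to 5 other pathway genes per comparison and 2 genes or those at background per marker list. Single ligands and further class II genes were named outside that rule, after their values were seen. Members, lists and rules were chosen with earlier results of these data known.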

Additional observations from a re-analysis of the deposited data

How the results depend on the processing

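Of the 15 member differences past 1.5-fold, 14 stayed past it under median scaling, quantile normalization and the mean over probes, and 13 of 13 that could be computed did so in the deposited value table. Keeping only genes above background on all arrays dropped the bounds of Oasl and left the other values unchanged. Its 13 of 13 was thus fixed in advance and is no check. Ifit2 was the one lost by both scalings and RT1-Bb by the mean over probes. With normexp 6 of 15 stayed, and the count in the prefrontal cortex was 3 in place of 11. At a 2-fold limit without normexp, the count in the prefrontal cortex was 1, where 58 of all 12572 genes were higher.

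The members' median in the cerebellum, 0.15, was 0.17 under median scaling and 0.17 under quantile normalization. That in the prefrontal cortex, 0.34, was 0.23 with normexp, 0.32 with genes above background on all 4 arrays and 0.32 in the value table. With no filter on dim probes the limma fit of tissue called 7 in place of 11 members lower in the cerebellum, and the share of all genes is not given.

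The assignment of the arrays decides which comparison each label names. As linked, the comparisons of states are the tissue comparisons with the sign reversed, and the terms of the fit change places. The state term is then the reversed tissue term, which called 72.9% of all genes. The values as linked follow from this exchange and are no separate check. With scanner files as linked, the medians were 0.0020 in the cerebellum and 0.030 in the prefrontal cortex, 12 and 9 members were lower by 1.5-fold or more, 6 were higher in the prefrontal cortex, the limma fit called 26 members for state and 0 higher and 0 lower for tissue, and 4 of 14 member differences stayed past 1.5-fold. Lgals3bp then had a log2 difference of -0.97 in the cerebellum, and RT1-Da -0.88, RT1-Bb -0.94 and Ifitm1 -0.54 in the prefrontal cortex. Those pairs join arrays of different tissues by their markers.

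No paired analysis was possible because each group has 1 array and the labels give no replicate numbers. Signal limits Oasl, Ifih1 and Tap1, whose SE between spots is large.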
